A study of Homo sapiens with 2 samples.

Results

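Cells dominated by mitochondrial transcripts were the cells with more than 50% of their UMIs (unique molecular identifiers, which count captured RNA molecules) from the 13 genes whose names start with MT-, the protein-coding genes of the mitochondrial genome. They were 630 of 3534 cells, 311 of 1783 cells in the mock-treated library and 319 of 1751 cells in the decitabine (DAC)-treated library. They are called MT-high cells here. The members were selected on their measured MT share, so that share and whatever follows from it by arithmetic is a description and not a finding. What the rule did not use is the composition of the rest of their RNA, which is given as shares of the non-MT UMIs against reference cells of the same library, namely cells with 10000 UMIs or more and 50% or less MT UMIs.

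HCT116 cells are an established line from a human colon cancer, and DAC is a cytidine analog that depletes DNA methyltransferases. DAC was given at 0.5 μM on days 1 and 3, the medium was changed on day 5, and cells were harvested on day 7, with mock-treated HCT116 cells as the control. The libraries for single cell RNA sequencing (scRNA-seq) were made with the 10x Genomics 3′ kit. The study's methods state that 1000 live cells were used for a library, without saying whether this was an input or a target number. The deposited data hold 1783 and 1751 cell barcodes. With 1 library for each treatment there was no test between treatments, and all intervals below cover counting error only, at the 95% level.

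Mitochondria transcribe their own small genome inside the organelle, and its mRNAs encode subunits of the respiratory chain and of ATP synthase. All other subunits, and all ribosomal proteins of the cytosol, are encoded in the nucleus and translated from mRNAs in the cytosol. Some long noncoding RNAs, MALAT1 and NEAT1 among them, stay in the nucleus, and mRNAs of secreted and membrane proteins are translated at the surface of the endoplasmic reticulum (ER). A high mitochondrial share is widely used in scRNA-seq as a sign of a damaged cell.

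The mock-treated library held 49911689 UMIs and the DAC-treated library 59046165 UMIs for 33538 listed genes. MT-high cells were 17.4% of the mock-treated cells (exact binomial interval 15.7 to 19.3%) and 18.2% of the DAC-treated cells (16.4 to 20.1%). Both libraries shared 12 barcodes, of which 0 were MT-high in either library. Of the cells that were not MT-high, 1298 mock-treated and 1120 DAC-treated cells were reference cells, and 174 and 312 cells had under 10000 UMIs. The epithelial keratins KRT8, KRT18, and KRT19 had between 644 and 3142 UMIs each in MT-high cells of either library. A list of 13 markers of blood, stromal, and endothelial cells had 32 UMIs in mock-treated and 158 UMIs in DAC-treated MT-high cells, of which 29 and 144 UMIs were COL1A1, a collagen chain. The list had a higher share of the non-MT UMIs in MT-high than in reference cells, 0.00421% against 0.00145% in the mock-treated library (log2 ratio 1.53, interval 0.97 to 2.05) and 0.0121% against 0.00303% in the DAC-treated library (1.99, 1.75 to 2.23). Without COL1A1 the log2 ratios were 1.14 and 0.26. The part of these markers in the results below was not tested. Of these 13 markers, 10 and 5 had no UMI in MT-high cells, among them PTPRC, the pan-leukocyte marker, and LYZ in both libraries.

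The MT-high cells had about as many MT UMIs as the reference cells and far fewer other UMIs. In the mock-treated library, their median was 5528 MT UMIs and 2126 non-MT UMIs per cell, against 5749 and 26790.5 in the reference cells. In the DAC-treated library, the medians were 7306 MT and 3534 non-MT UMIs, against 8251.5 and 38040 in the reference cells. The median of non-MT UMIs was thus 0.0794 of that of the reference cells in the mock-treated library and 0.0929 in the DAC-treated library. The median MT share was 71.1% and 67.6%, with maxima of 93.9% and 91.7%, against 17.1% and 17.9% in the reference cells. These values follow in part from the rule.

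**Figure D1:**
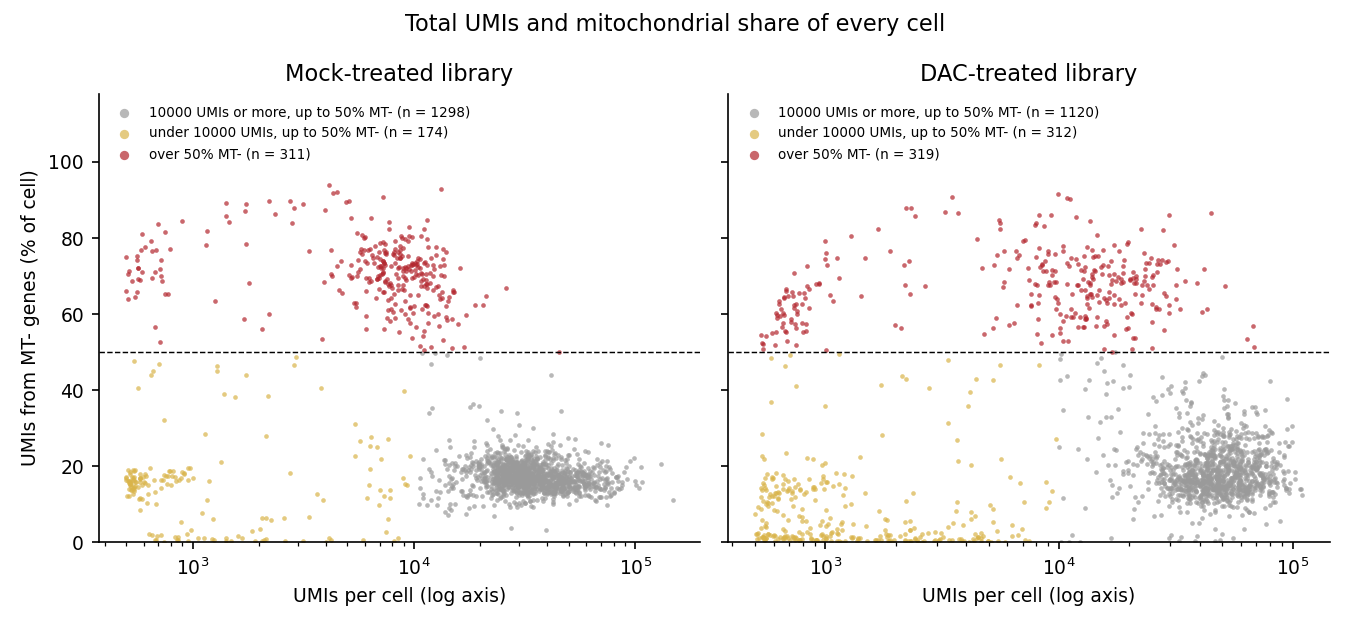
Every cell of the mock-treated (left) and DAC-treated (right) library by its UMIs (log axis) and its MT share in percent, with the 50% rule as a dashed line. Most of the 311 and 319 MT-high cells form a cloud at fewer UMIs than the 1298 and 1120 reference cells, and a smaller group lies under 1000 UMIs.

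Cells just inside and just outside the rule had similar shares of MALAT1 and of ribosomal protein mRNAs in the mock-treated library, but not similar UMI counts. The 12 mock-treated cells with over 45 and up to 50% MT UMIs had 15.4% of their non-MT UMIs from MALAT1 and 12.6% from ribosomal protein genes, and the 11 cells with over 50 and up to 55% had 12.4% and 12.8%. In the DAC-treated library, the 15 cells just outside had 4.62% from MALAT1 and 20.5% from ribosomal protein genes, and the 24 cells just inside had 5.46% and 12.04%. Median non-MT UMIs were 1513.5 just outside and 5494 just inside in the mock-treated library, and 5151 and 4112 in the DAC-treated library.

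The proportions among the 13 MT genes were close to those of the reference cells. MT-CO3, a subunit of cytochrome c oxidase, had 22.9% of the MT UMIs in MT-high cells and 22.7% in reference cells of the mock-treated library, and 17.6% and 17.5% in the DAC-treated library. MT-CO1 had 16.7% and 16.4%, and 13.3% and 13.1%. MT-CO2 had 20.1% and 18.6%, and 19.1% and 18.6%. Among the genes furthest from their reference share were the complex I subunits MT-ND4, with a log2 ratio of -0.21 in the mock-treated and -0.14 in the DAC-treated library, and MT-ND1, at 0.13 and 0.15. Counted per cell, MT-CO3 had a mean of 1254 UMIs in MT-high and 1420 UMIs in reference cells of the mock-treated library, and 1488 and 1616 UMIs in the DAC-treated library.

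Among the nuclear genes, copies of the mitochondrial 16S rRNA gene had some of the highest ratios. MTRNR2L genes are nuclear copies of MT-RNR2, the gene of the mitochondrial 16S rRNA, which is not among the 13 MT genes listed. Of the 10 genes with the highest ratio in both libraries, 5 were such copies. They are shown because the short reading frame known as humanin, with its surroundings, is similar in the copies and in the mitochondrial gene. The stretch of 75 bases runs 5′ to 3′ in the sense of the rRNA, on hg38, with capitals at each base that differs from MT-RNR2.
MT-RNR2, chrM:2633-2707, plus strand: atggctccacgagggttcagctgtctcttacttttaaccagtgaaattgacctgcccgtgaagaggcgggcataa
MTRNR2L12, chr3:96617199-96617273, minus strand: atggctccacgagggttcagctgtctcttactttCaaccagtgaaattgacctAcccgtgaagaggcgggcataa
MTRNR2L8, chr11:10508152-10508226, minus strand: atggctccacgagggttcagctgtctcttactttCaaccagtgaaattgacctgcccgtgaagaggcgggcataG
MTRNR2L1, chr17:22524062-22524136, plus strand: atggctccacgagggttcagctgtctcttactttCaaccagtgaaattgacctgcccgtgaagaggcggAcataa
MTRNR2L6, chr7:142667231-142667305, plus strand: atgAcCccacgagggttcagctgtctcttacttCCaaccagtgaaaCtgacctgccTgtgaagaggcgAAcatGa
MTRNR2L10, chrX:55181920-55181994, minus strand: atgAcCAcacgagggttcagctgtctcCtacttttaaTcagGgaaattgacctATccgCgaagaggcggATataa
MTRNR2L12, MTRNR2L8, and MTRNR2L1 differed from MT-RNR2 at 2 of these 75 bases, MTRNR2L6 at 9, and MTRNR2L10 at 11. Over their whole aligned length, identity to MT-RNR2 was 95.1% for MTRNR2L12, 93.02% for MTRNR2L8, 88.9% for MTRNR2L1, 88.1% for MTRNR2L6, and 83.3% for MTRNR2L10. Positions of the copies were taken from RefSeq and the letters from the hg38 reference. How reads of the mitochondrial rRNA and of these copies were assigned was not tested, and the counts of the copies are uncertain.

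MTRNR2L12 had 0.481% of the non-MT UMIs in mock-treated MT-high cells against 0.0327% in reference cells, and 0.366% against 0.0332% in the DAC-treated library, log2 ratios of 3.88 (3.82 to 3.93) and 3.47 (3.42 to 3.51). MTRNR2L8 stood at 3.62 and 3.29, MTRNR2L1 at 3.36 and 3.10, MTRNR2L6 at 3.98 and 3.23, and MTRNR2L10 at 3.23 and 3.41. Counted per cell rather than as a share, these 5 genes lay between 0.762 and 1.29 times the reference cells. MTRNR2L12 had 1.20 and 1.15 times the UMIs per reference cell in the mock-treated and the DAC-treated library, and MTRNR2L8 had 0.998 and 1.02 times. MTRNR2L1 had 0.836 and 0.894 times, MTRNR2L6 had 1.29 and 0.980 times, and MTRNR2L10 had 0.762 and 1.10 times.

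**Figure D2:**
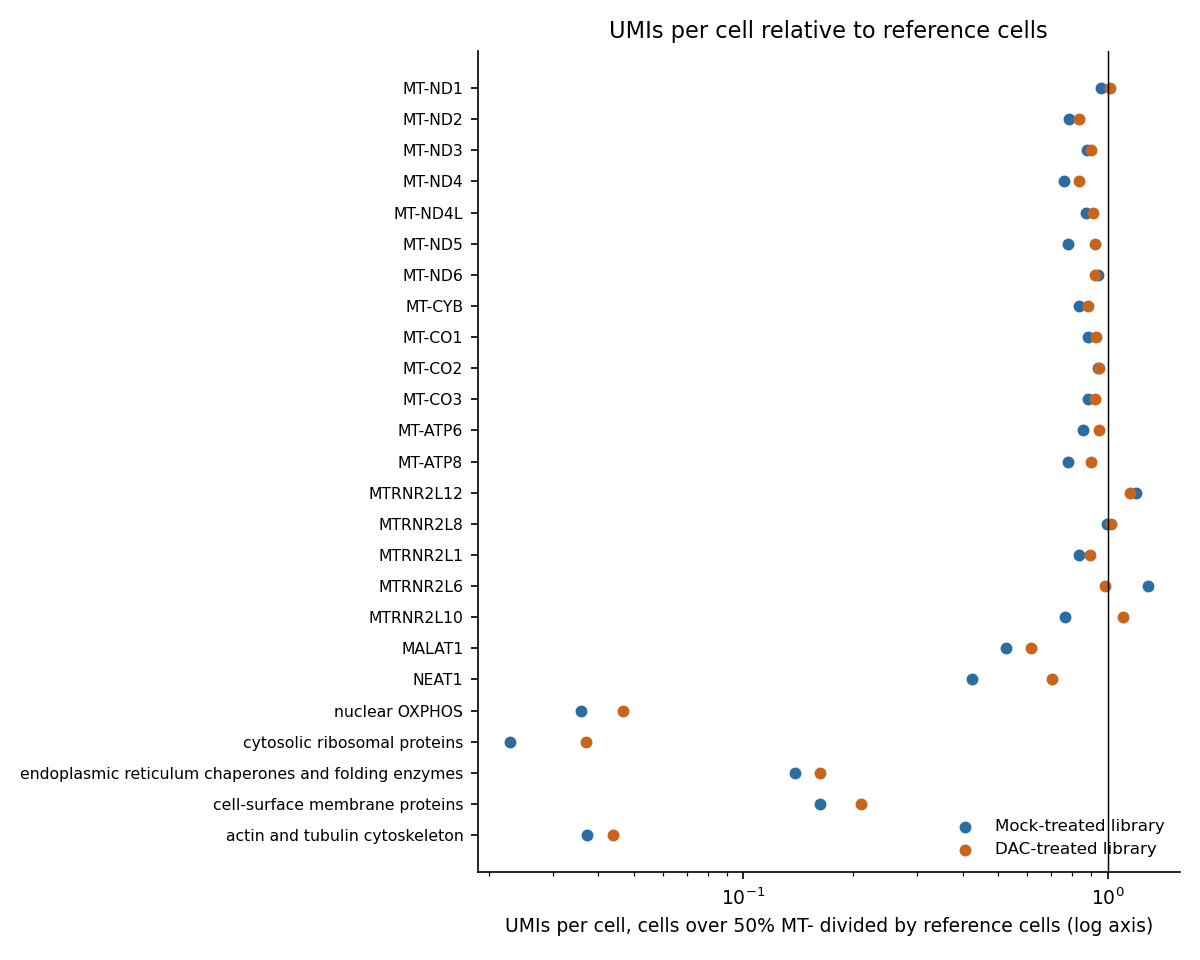
Mean UMIs per MT-high cell divided by mean UMIs per reference cell (log axis) for the 13 MT genes, 5 copies of the 16S rRNA gene, MALAT1, NEAT1, and gene lists, in each library. MT genes, whose counts entered the rule, lie near 1. The rRNA copies lie between 0.762 and 1.29, MALAT1 at 0.526 and 0.614, and ribosomal protein genes at 0.0228 and 0.0369.

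For all nuclear genes, a gene was tested when the mean of its shares in both cell groups was worth 20 UMIs or more in the MT-high cells of each library, and called when its share differed 2-fold or more. This left 5660 genes. In the mock-treated library, 1632 genes (28.8%) were higher and 846 (14.9%) were lower in MT-high cells. In the DAC-treated library, 1673 (29.6%) were higher and 771 (13.6%) were lower. In both libraries together, 1382 genes (24.4%) were higher and 620 (11%) were lower, and 0 genes were called in opposite directions. The median gene stood at a log2 ratio of 0.32 and 0.36, so the values of gene groups below are to be read against these medians. When the libraries were scaled to the median gene instead, 854 genes were higher and 1022 lower in both.

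MALAT1, a nuclear long noncoding RNA, took a much larger share of the remaining RNA. It had 21.1% of the non-MT UMIs in mock-treated MT-high cells against 3.26% in reference cells, and 9.07% against 1.54% in the DAC-treated library, log2 ratios of 2.69 (2.68 to 2.70) and 2.56 (2.55 to 2.57). NEAT1, which builds nuclear paraspeckles, had 0.429% against 0.0822%, and 0.512% against 0.0760%, log2 ratios of 2.38 and 2.75. All 5 tested genes of the nuclear-retained list were higher in both libraries, against 24.4% of all tested genes. KCNQ1OT1 stood at 2.60 and 2.76, FTX at 2.65 and 2.62, and JPX at 1.44 and 1.46. As UMIs per cell, MALAT1 was at 0.526 and 0.614 times the reference cells and NEAT1 at 0.424 and 0.701 times, so these RNAs were fewer per cell as well, though less so than the other lists. Of 80 tested long noncoding RNAs of any kind, 49 (61.25%) were higher in both libraries and 0 were lower, against 24.4% and 11% of all tested genes. Their median log2 ratios were 1.59 and 1.74.

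Ribosomal protein mRNAs made up much less of the remaining RNA. They had 8.50% of the non-MT UMIs against 30.3% in the mock-treated library and 7.24% against 20.5% in the DAC-treated library, log2 ratios of -1.83 (-1.84 to -1.82) and -1.50 (-1.51 to -1.49). Of the 81 genes, 77 were lower in both libraries and 0 were higher, against 11% and 24.4% of all tested genes. The other 4 were RPL17, RPS27L, RPL36A, and RPS21. RPS2, of the small subunit, had 0.426% against 1.36% and 0.289% against 0.834%. RPL13, of the large subunit, had 0.343% against 1.30% and 0.304% against 0.771%. Per cell, ribosomal protein UMIs were 0.0228 and 0.0369 times those of the reference cells. With each cell given the same weight, the list's log2 ratios were -1.36 and -0.89.

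**Figure D3:**
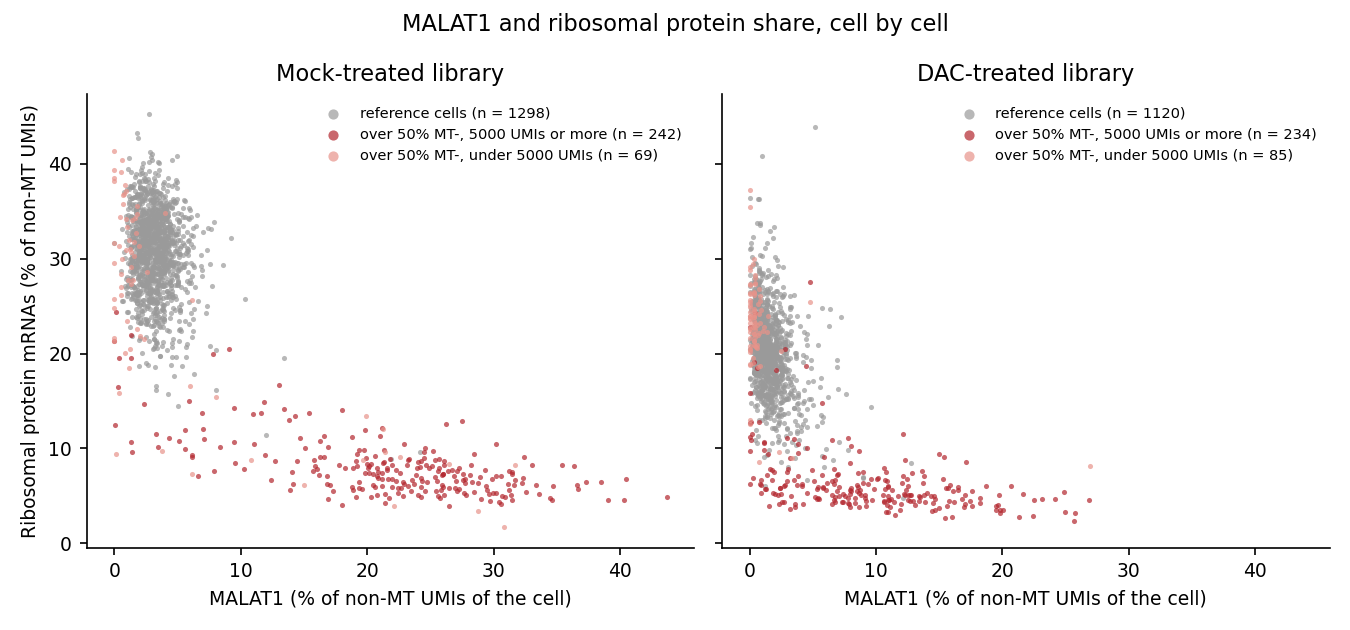
MALAT1 share against ribosomal protein share of the non-MT UMIs, in percent, for each reference cell (grey) and MT-high cell (red, 5000 UMIs or more, and pink, under 5000 UMIs). Most MT-high cells with 5000 UMIs or more lie low on the ribosomal axis and spread along the MALAT1 axis, and many of those under 5000 UMIs lie among the reference cells.

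The shares of MALAT1 and of ribosomal protein mRNAs varied among MT-high cells. The median MALAT1 share per cell was 20.8% in mock-treated MT-high cells (quartiles 7.07 and 26.0%) and 3.13% in reference cells. In the DAC-treated library it was 5.77% (quartiles 0.707 and 11.8%) and 1.36%. A share above the 99th percentile of the reference cells was found in 232 mock-treated (74.6%) and 145 DAC-treated (45.5%) MT-high cells. A ribosomal protein share below the 1st percentile of the reference cells was found in 254 (81.7%) and 205 (64.3%) of them.

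MT-high cells with few UMIs differed from the others. The 35 mock-treated and 56 DAC-treated MT-high cells under 1000 UMIs had a median of 170 and 276.5 non-MT UMIs. Their ribosomal protein share was 30.8% and 23.9%, log2 ratios of 0.03 (-0.04 to 0.09) and 0.23 (0.18 to 0.27) to the reference cells, and their MALAT1 share was 1.31% and 0.392%, log2 ratios of -1.31 and -1.97. The 242 and 234 MT-high cells with 5000 UMIs or more had a MALAT1 share of 21.4% and 9.26% and a ribosomal protein share of 8.16% and 6.90%. Those with 1000 to under 5000 UMIs, 34 and 29 cells, had summed shares between them, with 14.8% and 2.43% from MALAT1 and 13.3% and 18.3% from ribosomal protein genes. Their median MALAT1 share per cell was 2.07% and 0.355%, against 0.901% and 0.353% in the cells under 1000 UMIs. Cells under 1000 UMIs held 6238 and 15563 of the 760155 and 1309470 non-MT UMIs of MT-high cells, so they bear little on the summed shares of the lists.

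Among MT-high cells with 5000 UMIs or more, 5 mock-treated and 18 DAC-treated cells had under 1% MALAT1, although MT-high cells of that size had a median of 22.5% and 8.64%. Their median MT share was 85.2% and 76.5%. Their ribosomal protein share was 17.8% and 13.9%, log2 ratios of -0.77 and -0.56, and their share of cell-surface protein mRNAs was 2.62% and 0.996%, log2 ratios of 2.40 and 0.97. Cells with over 80% MT UMIs, 40 and 26 in number, had a summed MALAT1 share of 9.89% and 4.27%, below that of all MT-high cells of their library, and a median per cell of 1.26% and 0.406%.

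Nuclear genes of the respiratory chain had a lower share of the non-MT UMIs. The level of the 13 MT genes was fixed by the rule, so no comparison with it is drawn. The 76 nuclear genes of oxidative phosphorylation (OXPHOS) had 0.898% of the non-MT UMIs against 2.04% in the mock-treated library and 1.09% against 2.43% in the DAC-treated library, log2 ratios of -1.18 (-1.22 to -1.15) and -1.15 (-1.18 to -1.13). Of the 75 that were tested, 43 were lower in both libraries and 1 was higher, against 11% and 24.4% of all tested genes, with medians of -1.34 and -1.25. Per cell, their UMIs were 0.0359 and 0.0469 times those of the reference cells, which follows in part from the rule. UQCRH, of complex III, had 0.0237% against 0.0852% and 0.0329% against 0.0978%, log2 ratios of -1.85 and -1.57. ATP5MC2, a membrane subunit of ATP synthase, was among the 10 genes with the lowest ratios, with 0.0113% against 0.0436% and 0.00657% against 0.0262%. The gene that was higher was SDHA, the large subunit of complex II, at 1.12 and 1.17, which was named after its value was seen.

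Proteins that act on mitochondrial RNA and DNA were mixed. Of 16 tested mitochondrial gene expression factors, 5 were higher and 1 was lower in both libraries, near the 24.4% and 11% of all tested genes, and the summed share was at 0.07 and 0.17, values that turned negative when the libraries were scaled to the median gene. The 5 were POLRMT, the mitochondrial RNA polymerase, FASTKD2, SUPV3L1, PNPT1, and GFM1, at 1.04 to 1.57 in the mock-treated library. SLIRP, a small partner of LRPPRC in mitochondrial mRNA stability, was lower, at -1.34 and -1.40, while LRPPRC itself stood at 0.81 and 1.17. MRPL12 and MRPL58, of the mitochondrial ribosome, were among the 10 lowest genes, at -2.12 and -1.98, and -1.94 and -2.04.

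mRNAs of cell-surface proteins were higher. The list of 34 genes, of which 31 were tested, had 0.992% against 0.498% in the mock-treated library and 1.03% against 0.509% in the DAC-treated library, log2 ratios of 0.99 (0.96 to 1.03) and 1.01 (0.99 to 1.04). Of the 31, 20 were higher in both libraries and 0 were lower, against 24.4% and 11% of all tested genes. Their medians were 1.27 and 1.32, against 0.32 and 0.36 over all genes. SLC3A2, the heavy chain of amino acid transporters, had 0.241% against 0.0699% and 0.108% against 0.0328%, log2 ratios of 1.79 and 1.71. CD46, a complement regulator, stood at 1.89 and 1.63, TFRC, the transferrin receptor, at 1.70 and 1.44, ERBB2 at 1.68 and 1.62, ITGA2, an integrin, at 1.68 and 2.67, EGFR at 1.35 and 1.67, and CDH1, the cadherin of epithelial junctions, at 1.43 and 2.15. These 6 were named after their values were seen. The tetraspanins CD63 and CD81, which have short mRNAs, were not called, at -0.34 and -0.19, and at 0.05 and 0.17.

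ER chaperones and folding enzymes had 0.830% against 0.489% in the mock-treated library and 0.908% against 0.582% in the DAC-treated library, log2 ratios of 0.76 (0.73 to 0.80) and 0.64 (0.61 to 0.67). Of the 20 genes, 4 were higher and 1 was lower in both libraries, no larger a share than the 24.4% and 11% of all tested genes. HSPA5, the main HSP70 chaperone of the ER, had 0.256% against 0.0988% and 0.131% against 0.0422%, log2 ratios of 1.37 and 1.63. HYOU1 stood at 1.53 and 1.85, PDIA3 at 1.43 and 1.65, and CANX, the calnexin gene, at 1.03 and 1.11. SELENOK, which encodes a small selenoprotein of the ER membrane, was the lower gene, at -1.08 and -1.23.

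In the lists of abundant cytosolic proteins, tested genes were either lower or not called in both libraries, while over all tested genes 11% were lower and 24.4% higher. Of 13 tested glycolysis enzymes, 6 were lower in both libraries and 0 were higher, and GAPDH had 0.0818% against 0.274% and 0.132% against 0.286%. Of 23 actin and tubulin cytoskeleton genes, 8 were lower and 0 were higher, with summed log2 ratios of -1.13 and -1.24, and PFN1, which binds actin monomers, was among the 10 lowest genes at -2.24 and -2.04. TMSB10, another actin monomer binder, had 0.118% against 0.409% and 0.145% against 0.484%. Of 11 ferritin and antioxidant genes, 6 were lower, with FTL, the ferritin light chain, at -1.90 and -1.74. The 3 tested metallothioneins were all lower, at -1.53 to -1.81 in the mock-treated and -1.15 to -1.35 in the DAC-treated library. Of 7 translation elongation factors, 4 were lower, and EEF1A1 had 0.280% against 1.20% in the mock-treated and 0.205% against 0.442% in the DAC-treated library. With each cell given the same weight, 0 of the lists were 2-fold or more lower in both libraries, against 6 by summed UMIs.

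Keratins of simple epithelium were at -0.77 and -0.87, with KRT18 lower among 4 tested genes, at -1.10 and -1.22. The wider list of 7 epithelial markers had summed log2 ratios of -0.52 and -0.76, set by the keratins, but medians of 0.40 and 0.66, with CDH1 and the transcription factor ELF3 higher in both libraries and KRT18 lower.

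Replication-dependent histone genes, most of whose mRNAs lack a poly(A) tail, were lower in both libraries for all 4 tested of 19 listed genes. Over all tested genes, 11% were lower. HIST1H4C had 0.0174% against 0.111% in the mock-treated library and 0.0155% against 0.0668% in the DAC-treated library, log2 ratios of -2.68 (-2.94 to -2.43) and -2.11 (-2.31 to -1.91). HIST2H2AC, at -2.17 and -2.29, had only 10 and 8 UMIs in MT-high cells. DBI, UXT, TRAPPC1, and CKS2 completed the 10 lowest genes, all with log2 ratios between -2.26 and -1.95 and transcripts of 564 to 812 bases.

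**Figure D4:**
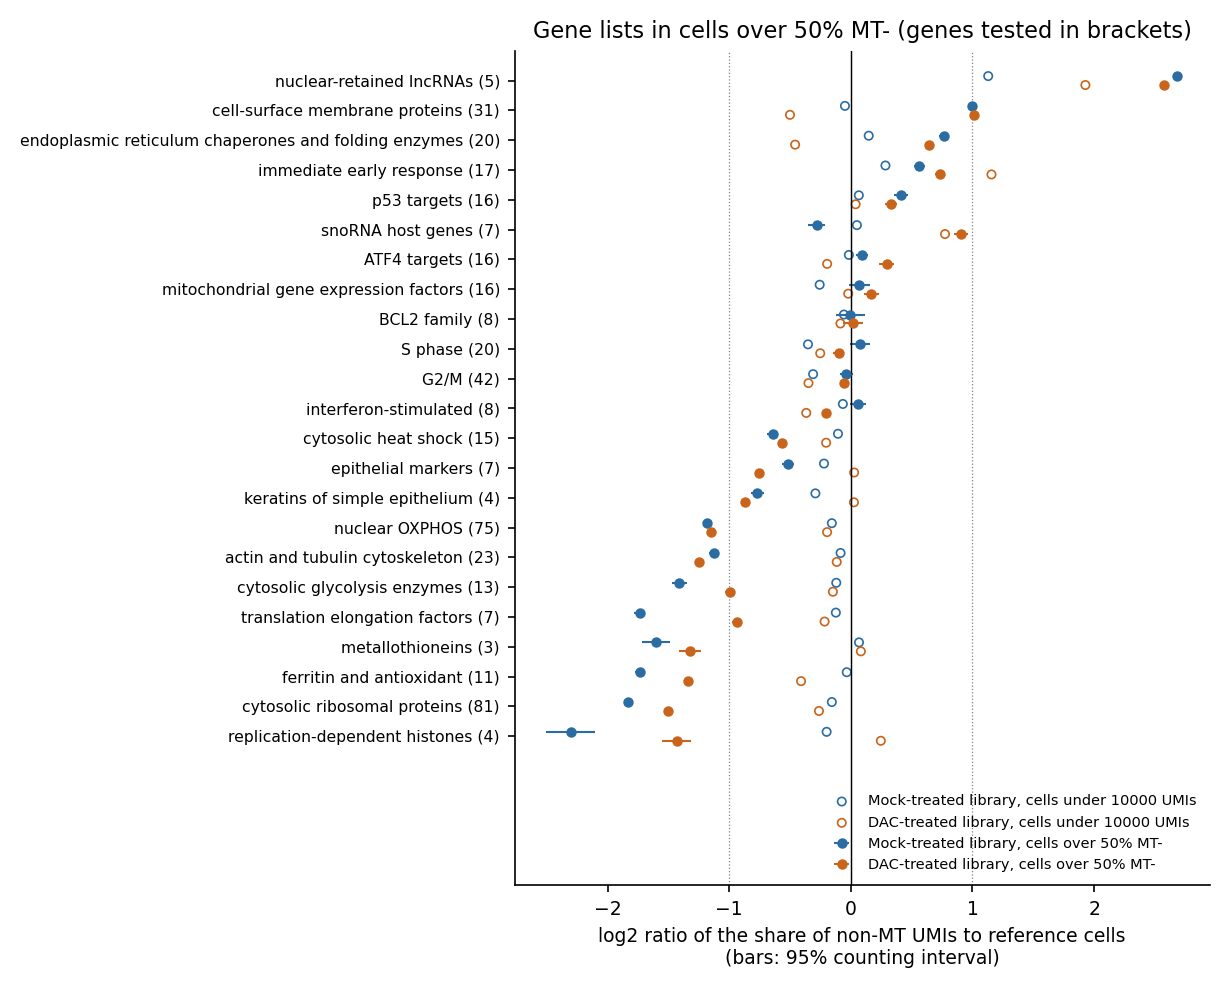
Log2 ratio of the share of each gene list in non-MT UMIs to that in reference cells, for MT-high cells (filled, bars are 95% counting intervals) and for cells under 10000 UMIs with up to 50% MT (open), in each library. Dotted lines mark 2-fold. The nuclear-retained RNAs lie at 2.68 and 2.57, cell-surface proteins at 0.99 and 1.01, and ribosomal proteins at -1.83 and -1.50, and the open points of the lower lists lie close to 0. Open points lie at 1.13 and 1.93 for nuclear-retained RNAs and at 0.28 and 1.16 for immediate early genes. They lie at 0.05 and 0.77 for snoRNA host genes, and at -0.05 and -0.50 for cell-surface proteins.

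Cell cycle genes were mixed within each list. The G2/M list was at -0.04 and -0.06 and the S phase list at 0.08 and -0.10, and the mock-treated value of the S phase list turned negative when scaled to the median gene. Of 42 tested G2/M genes, 4 were lower in both libraries, near the 11% of all tested genes, and 0 were higher, against 24.4% of all tested genes. The 4 lower genes were CKS2, CKS1B, CDK1, and CCNB2, with CDK1, the mitotic kinase, at -1.31 and -1.22. MKI67 and CENPF, with transcripts of 12716 and 10290 bases, stood at 0.78 and 0.94, and at 0.95 and 0.71. Of 20 S phase genes, 2 were higher, a smaller share than the 24.4% of all tested genes. They were HELLS, at 1.12 and 1.09, and CDCA7, at 1.71 and 1.09.

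Lists of stress and death genes stood less than 2-fold from the reference cells. The p53 target list was at 0.42 and 0.33, close to the medians over all genes, and the DAC-treated value turned negative when scaled to the median gene, with 3 of 16 genes higher (DDB2, PLK3, and FUCA1), a smaller share than the 24.4% of all tested genes. The ATF4 target list was at 0.09 and 0.29, and both values turned negative when scaled to the median gene. Among its 16 tested genes, 1 was lower and 0 were higher in both libraries, against 11% and 24.4% of all tested genes. The lower gene was MTHFD2, at -1.45 and -1.11. The BCL2 family was at -0.003 and 0.02, the latter of which turned negative with the same scaling, with 1 of 8 tested genes lower, BAD, which promotes apoptosis, at -1.81 and -1.06, and MCL1, which opposes it, at 1.28 and 0.89. Immediate early genes were at 0.56 and 0.73, and 3 of 17 were higher, a smaller share than the 24.4% of all tested genes, FOS at 1.43 and 1.54, FOSB at 1.89 and 2.28, and KLF6 at 1.66 and 1.95. Cytosolic heat shock genes were at -0.64 and -0.57, and 2 of 15 tested genes, HSPE1 and HSPB1, were lower, near the 11% of all tested genes. The interferon-stimulated list was at 0.06 and -0.21, and its mock-treated value turned negative when scaled to the median gene. Of its 8 tested genes, IFITM2 and IFITM3 were lower in both libraries, at -2.04 and -1.78, and at -1.41 and -1.17. In the mock-treated library, the summed ratio and the median over genes had opposite signs for the S phase, G2/M, ATF4 target, and interferon-stimulated lists, with medians of -0.25, 0.07, -0.04, and -0.06, and in the DAC-treated library for the BCL2 family, with a median of -0.19.

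Transcript length and the encoded protein went with the ratios across the genome. The 5566 tested protein-coding genes with a translation in GENCODE release 44 were split into 4 groups of equal size by transcript length. From the shortest to the longest group, the median log2 ratio was -0.82, 0.14, 0.54, and 1.01 in the mock-treated library and -0.77, 0.16, 0.58, and 1.05 in the DAC-treated library. Of the 1392 shortest genes, 463 (33.3%) were lower in both libraries and 71 (5.10%) were higher, and of the 1392 longest, 20 (1.44%) were lower and 612 (43.97%) were higher. Without the ribosomal protein and OXPHOS lists, the shortest group stood at -0.74 and -0.70. AKAP12, a scaffold protein with a transcript of 8466 bases, had 0.864% against 0.581% and 0.590% against 0.201%, log2 ratios of 0.57 and 1.55.

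A hydrophobic window, as found in membrane-spanning segments and signal peptides, was scored as 19 residues with a mean Kyte-Doolittle hydropathy of 1.6 or more. The 1556 genes with such a window had median log2 ratios of 0.73 and 0.77, and the 4010 genes without had 0.11 and 0.16. The difference was seen in each length group. In the shortest group, medians were -0.38 and -0.27 with a window and -0.93 and -0.91 without, and in the longest group 1.24 and 1.30 with and 0.91 and 0.96 without. Genes are not independent replicates, so these are descriptions of 2 libraries with no test.

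**Figure D5:**
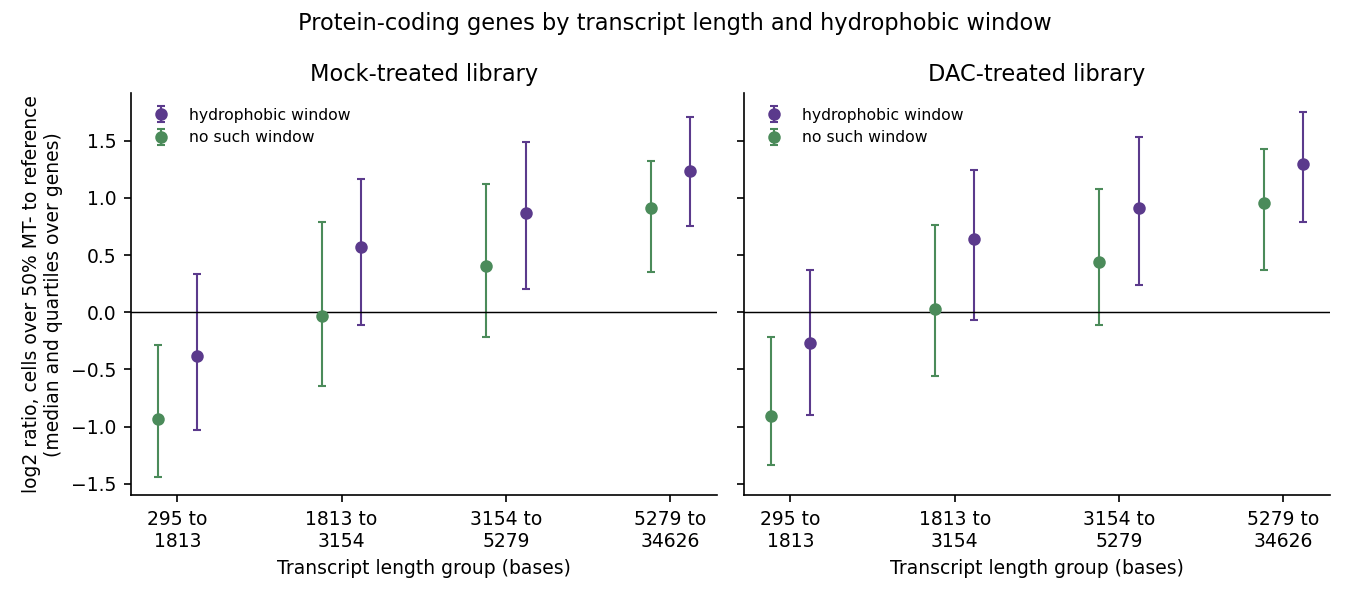
Median and quartiles over genes of the log2 ratio of MT-high to reference cells, by group of transcript length in bases, for protein-coding genes with (purple) and without (green) a hydrophobic window. Ratios run from about -0.9 for the shortest genes without a window to about 1.3 for the longest with one, in both libraries.

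Outside the rRNA copies, the 10 genes with the highest ratios held AC090673.1, a long noncoding RNA, STRADA, a pseudokinase partner of LKB1, ANKRD36B, NAIP, and ANGPT2, an angiopoietin. ANGPT2 had 0.0175% against 0.00209% in the mock-treated library and 0.0254% against 0.00339% in the DAC-treated library, log2 ratios of 3.06 and 2.91. NAIP and ANKRD36B have close copies in the genome, so their counts are uncertain, and they had 51 and 51, and 43 and 102 UMIs in MT-high cells.

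MT-high cells had a median of 1216 detected nuclear genes in the mock-treated and 2037 in the DAC-treated library, against 5301 and 6631 in reference cells. When each cell was thinned to 300 non-MT UMIs, the medians were 218 (interval 214 to 220) against 228 (228 to 229), and 253 (251 to 255) against 253 (252 to 254). Thinning left out 44 and 52 MT-high cells with fewer non-MT UMIs and 0 reference cells.

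MT-high cells of the DAC-treated library held transcripts of the genes that earlier results had picked as highest in DAC-treated cells. These 10 genes had 3453 UMIs in DAC-treated and 8 UMIs in mock-treated MT-high cells, of which 7 were SAP25. They were picked from these same data, so this contrast between libraries follows from the choice and is not a finding. MEG3 alone had 1955 of the 3453 UMIs. MEG3, an imprinted long noncoding RNA, had 0.149% of non-MT UMIs in MT-high against 0.0208% in reference cells of the DAC-treated library, a log2 ratio of 2.84 (2.77 to 2.91). LINC00958, also a long noncoding RNA, stood at 1.08. The cancer-testis genes were nearer to or below the reference cells, MAGEA4 at -0.24 and VCX3B at -1.27, and VCX3A had 0.00588% in MT-high against 0.0118% in reference cells. UCHL1, a ubiquitin hydrolase of neurons, and LY6K stood at -0.52 and -0.46.

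Between the libraries, the ratios of MT-high to reference cells were alike for most genes. Of 5660 genes, 5103 (90.2%) had the same sign in both libraries, and 105 (1.86%) had log2 ratios that differed by 1 or more, 70 with the higher ratio in the DAC-treated and 35 in the mock-treated library. The largest differences were for ESPN, an actin bundling protein, at -1.38 in the mock-treated and 0.91 in the DAC-treated library, and SH3BGRL, at -2.90 and -0.73. In the other direction, CRIPT stood at 0.38 and -1.28. ISG15, an interferon-stimulated ubiquitin-like protein, stood at 0.14 and -1.13. Whether these differences belong to the treatment or to the library cannot be told apart. ESPN, SH3BGRL, and CRIPT are extremes among the 5660 genes, and the part of counting error in their differences was not tested.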

How the data were processed

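scRNA-seq libraries of mock-treated and DAC-treated HCT116 cells were deposited, 1 for each treatment. The authors deposited raw UMI counts for each gene in each cell, obtained with Cell Ranger on hg38 and not normalized further. The annotation release and any filter on cells are not given in the sources used here. All deposited cells were used, and doublets were not called, since cells of 1 line carry no marker of them. For each group of cells, UMIs were summed and divided by the non-MT UMIs of that group. Ratios have exact conditional Poisson intervals, shares of cells Clopper-Pearson intervals, and medians order-statistic intervals, and a count of 0 was set to 3 counts. Cells are not replicates, so no p-value is given.

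MT-high cells, gene lists, and comparisons were chosen with earlier results of these data known. The lists had 600 entries, of which 591 matched a listed gene name. Genes were named by rule: the 10 with the most UMIs in MT-high cells, the 10 highest and 10 lowest by the smaller of both log2 ratios among genes called in both libraries, the 3 most abundant of each list, and the genes highest in DAC-treated cells. Genes given beyond it, including the rRNA copies, members of lists counted as higher or lower, and those differing between libraries, were named after their values were seen. Values of some genes under this rule are not reported here. Transcript lengths and translations were of GENCODE release 44, with 5650 of 5660 tested genes matched by Ensembl identifier, and the rRNA copies were placed by RefSeq on GRCh38. Alternatives were other MT thresholds, UMI minimums, and reference cells, equal weight of cells, median-of-ratios scaling, other folds and filters, and, added after seeing the data, a total without MALAT1 and only MT-high cells with 5000 UMIs or more. Python 3.11.15 with numpy 2.4.6, scipy 1.17.1, Biopython 1.88, and matplotlib 3.10.9 were used, and computations were tested on simulated data.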

Additional observations from a re-analysis of the deposited data

Results flagged for a closer look

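The list of snoRNA host genes, whose introns carry small nucleolar RNAs, had 14 entries, of which 7 matched a listed gene name. The summed share of these 7 genes was lower in MT-high than in reference cells of the mock-treated library (log2 ratio -0.28, interval -0.35 to -0.21) and higher in the DAC-treated library (0.90, 0.85 to 0.96), a difference of 1.18 with opposite directions and both intervals off 0. The median over its genes was 0.86 and 1.09, so that the sum and the median differed in sign in the mock-treated library. ZFAS1 stood at -1.98 and -0.75, and its share in reference cells was 0.147% in the mock-treated and 0.0367% in the DAC-treated library. TAF1D and SNHG12 were higher in both libraries, TAF1D at 1.30 and 1.92. ATF4, a transcription factor induced by amino acid shortage, stood at -0.27 and 0.29, a difference of 0.56, and both values were negative when scaled to the median gene, at -0.59 and -0.06. With 1 library for each treatment, neither difference was tested.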

How the results depend on the processing

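Of 2470 values of lists and named genes recomputed under 13 alternatives, 993 moved in size beyond their counting error. In the results that were 2-fold or more apart, 1365 of 1366 values kept their direction. The exception was the list of genes highest in DAC-treated cells in the mock-treated library, which has 8 UMIs in MT-high cells and went to -1.35 against cells under 10000 UMIs. With a threshold of 60% MT, MT-high cells were 15.5% of mock-treated and 14.0% of DAC-treated cells. With 40% they were 20.6% of DAC-treated cells, and among cells with 5000 UMIs or more 15.5% of mock-treated cells. The ratio of median non-MT UMIs became 0.0986 and 0.122 for MT-high cells with 5000 UMIs or more, 0.111 in the DAC-treated library for those with 1000 or more, and 3.02 and 3.75 against cells under 10000 UMIs. Against the latter, thinned MT-high cells of the mock-treated library had 16 genes fewer (a difference of -16, against -10 to reference cells), 901 genes were higher and 395 lower in both libraries, and 943 genes differed between libraries. With equal weight of cells, 212 genes were lower in both, 437 differed between libraries, and 0 lists were 2-fold lower in both. Median-of-ratios scaling, which moved all log2 ratios down by 0.32 and 0.36, gave 854 higher and 1022 lower genes. A fold of 1.5 gave 2113 and 1114 genes, a minimum of 100 UMIs gave 164 and 318, and no filter gave 5119 higher genes. The share of higher among called genes was 69.0% at first, 45.5% with that scaling, 34.0% with the 100 UMI minimum, 81.7% with equal weights, 79.7% with MALAT1 left out of the total, and 87.1% with no filter. Among lists with a tested gene, cell-surface proteins joined the nuclear-retained RNAs as 2 lists that were 2-fold higher in both libraries with thresholds of 60% or 40%, reference cells of 20% or less MT, MALAT1 left out, or medians over genes, against 1 list otherwise. No paired analysis was possible because each treatment has 1 library with no replicate number. Depth limits what single MT-high cells show, since their lower quartile was 1351.5 non-MT UMIs in the mock-treated and 834.5 in the DAC-treated library.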

Other observations

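The cells under 10000 UMIs with up to 50% MT UMIs, 174 in the mock-treated and 312 in the DAC-treated library, also had few non-MT UMIs, with medians of 704 and 942.5, but had few MT UMIs too, with medians of 96.5 and 54. Their ribosomal protein share was 27.2% and 17.1%, against 30.3% and 20.5% in reference cells, and their summed MALAT1 share was 7.17% and 6.04%, against 3.26% and 1.54%. The median MALAT1 share per cell was not higher, at 3.09% and 0.795%, against 3.13% and 1.36% in reference cells. Cell-surface protein mRNAs stood at log2 ratios of -0.05 and -0.50 to reference cells.

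The few cells with over 90% MT UMIs, 5 mock-treated and 4 DAC-treated, had a MALAT1 share of 0.426% and 0.185% and a ribosomal protein share of 23.6% and 15.1% of their non-MT UMIs.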
